A study of Mus musculus with 31 samples.

Results

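Mouse embryonic stem cells (ESC) were compared with untreated mouse embryonic fibroblasts (MEF) by RNA-seq, using the 2 libraries titled OG2mES and the 2 libraries titled OG2MEF with no compound named, 4 of the 31 libraries of the series. All 4 are labelled 129/OG2, untreated and 0 days. OG2 is the name of a mouse line with a green fluorescent reporter under Pou5f1 regulatory sequences. The ESC libraries, called 0822 and 0819 after their titles, are labelled as passage 17 and 19, and the MEF libraries 0824 and 0826 as passage 2, so cell type and passage cannot be told apart. The ESC files carry the numbers 0822 and 0819 the other way round, so which ESC library is of which passage is uncertain. The labels name no culture medium, no feeder layer and no sex, and they do not say whether both libraries of a group derive from 1 culture. The p-values thus rest on a spread that may be technical. The study as a whole followed fibroblasts and cells under reprogramming by the factors OKSM at day 3 and day 8, with Flag or Tet1CD virus and with DMSO, Vc or DKG, and the comparison of ESC with MEF sets out how far apart the starting type of cell and the pluripotent type stand.

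Mouse ESC come from the inner cell mass of the blastocyst and can form every tissue of the body. Their state rests on transcription factors around Pou5f1 (Oct4), Sox2 and Nanog that bind each other's genes, on leukaemia inhibitory factor (LIF) signalling through Stat3, and on an epithelial organisation with E-cadherin junctions. MEF are mesenchymal cells that secrete a collagen matrix, contract through actin stress fibres and keep the epithelial and pluripotency genes silent, and the passage between these states is a step of reprogramming.

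The deposited expected counts summed to 5114254 and 5392286 in ESC and to 5552348 and 5879637 in MEF. Values of a pair of libraries are given throughout in the order 0822 and 0819 for ESC and 0824 and 0826 for MEF (n = 2 in each group), as CPM (counts per 1000000, scaled by TMM factors) unless TPM, which corrects for transcript length, is named. At least 1 count was found for 17810 and 18395 genes in ESC, against 16720 and 16696 genes in MEF. The 100 most abundant genes took 17.7% and 18.2% of the counts in ESC, against 24.9% and 24.7% in MEF. Of 14914 genes tested with edgeR's quasi-likelihood test, 7819 (52.4%) were called at an adjusted p under 0.05, of which 3991 (26.8%) were higher and 3828 (25.7%) were lower in ESC. The spread in this test was shared over 14 groups of 2 libraries. With ESC 0819 as the sole ESC library 4604 of 15803 genes (29.1%) were higher and 4262 (27%) were lower (56.1% in all), and with ESC 0822 as the sole one 3121 of 15324 (20.4%) were higher and 2656 (17.3%) were lower (37.7% in all), each under the assumption that the lone library varied like the other groups. All 3 fits called 2610 genes higher and 2206 lower. Without MEF 0824, 18.3% were higher and 17.7% lower (36.1% in all), and without MEF 0826, 19.9% and 19.6% (39.5% in all). A fit of only the 4 ESC and MEF libraries called 1423 of 13440 higher (10.6%) and 608 lower (4.52%, 15.1% in all), and 46 of the 120 named genes it tested lost their call there. Its result is not given for every gene below. Among the genes that lost their call in it were Fgfr1, Cldn6, Ccnd2, Cdk6 and Hk1 (adjusted p = 0.133, 0.0551, 0.207, 0.159 and 0.251). Mbnl1, Cxcl12, Hoxa9 and Meg3 lost it too (adjusted p = 0.139, 0.239, 0.204 and 0.0705). The groups thus differed over much of the tested transcriptome, and a share of called genes in any list has to be read against these percentages.

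The ESC libraries differed from each other in one respect that touches every result below. The summed level of the 15 fibroblast markers (Col1a1, Postn, Thy1, Pdgfra, Prrx1 and others) was 11530 and 111 CPM in ESC, against 36242 and 38033 CPM in MEF, so that ESC 0819 was nearly free of them and ESC 0822 was not. To read this without choosing genes in the library that is read, all 157 genes with a MEF mean of at least 100 CPM and under 1% of it in ESC 0819 were taken, and their level in ESC 0822 had a median of 26.1% of the MEF mean (quartiles 21.2% and 31.5%). In 141 of the 157 it lay between 15% and 45%, and the whole range was 4.17% to 60.2%. The reverse selection, genes under 1% of the MEF mean in ESC 0822, held 0 genes. Pluripotent cell markers were high in both ESC libraries, with a sum over 12 genes of 3593 and 4441 CPM in ESC, against 5.58 and 8.74 CPM in MEF. The label ESC therefore matched its defining markers in both libraries, and the label MEF matched fibroblast markers in both MEF libraries, while ESC 0822 held fibroblast transcripts too. In bulk RNA a smaller number of fibroblasts and less fibroblast RNA per cell cannot be told apart, and the source of these transcripts was not tested.

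**Figure D1:**
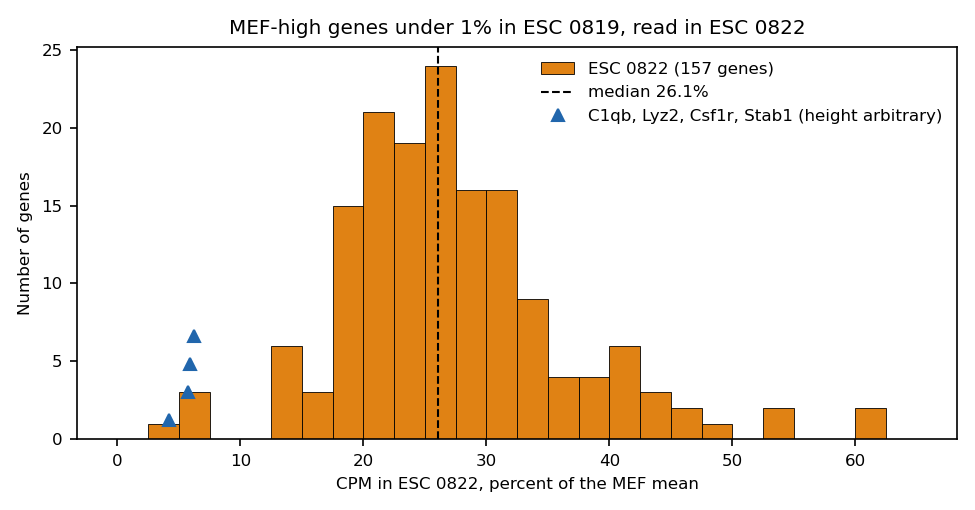
Histogram of the level in ESC 0822, as percent of the MEF mean (x axis), of the 157 genes with a MEF mean of at least 100 CPM and under 1% of it in ESC 0819, with the number of genes on the y axis. Most genes gather around the median of 26.1% (dashed line), and the 4 lowest (triangles, drawn at arbitrary height) are C1qb, Lyz2, Csf1r and Stab1, at 4.17% to 6.21%.

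The lowest 4 of the 157 genes are known from macrophages: C1qb (complement), Lyz2 (lysozyme), Csf1r (the receptor of the macrophage growth factor) and Stab1 (a scavenger receptor). Their rank depended on the MEF library. In ESC 0822 they stood at 2.47%, 3.48%, 3.61% and 3.85% of MEF 0824, but at 13.4%, 17%, 15.8% and 16.1% of MEF 0826. Grem1, the next gene, stood at 12% and 14%. Lyz2 had 53.8 and 0 CPM in ESC, against 1547 and 317 CPM in MEF. MEF 0824 thus stood far above MEF 0826, and the same holds for the macrophage marker list as a whole, whose sum was 230 and 371 CPM in ESC, against 3219 and 680 CPM in MEF. Of the 371 CPM in ESC 0819, Laptm5, a lysosomal membrane protein of blood cells, made up 322, and Lyz2, Adgre1, Tyrobp, C1qa, C1qb and C1qc were at 0 there. Of the 15 macrophage markers 12 were called lower and 0 higher, but without MEF 0824 only 1 was lower and 1 higher, while without MEF 0826 13 were lower. The highest of the 157 in ESC 0822 were Igfbp5, Crispld2, Chst2 and Xist, at 60.2%, 60%, 53.7% and 53% of the MEF mean.

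**Figure D2:**
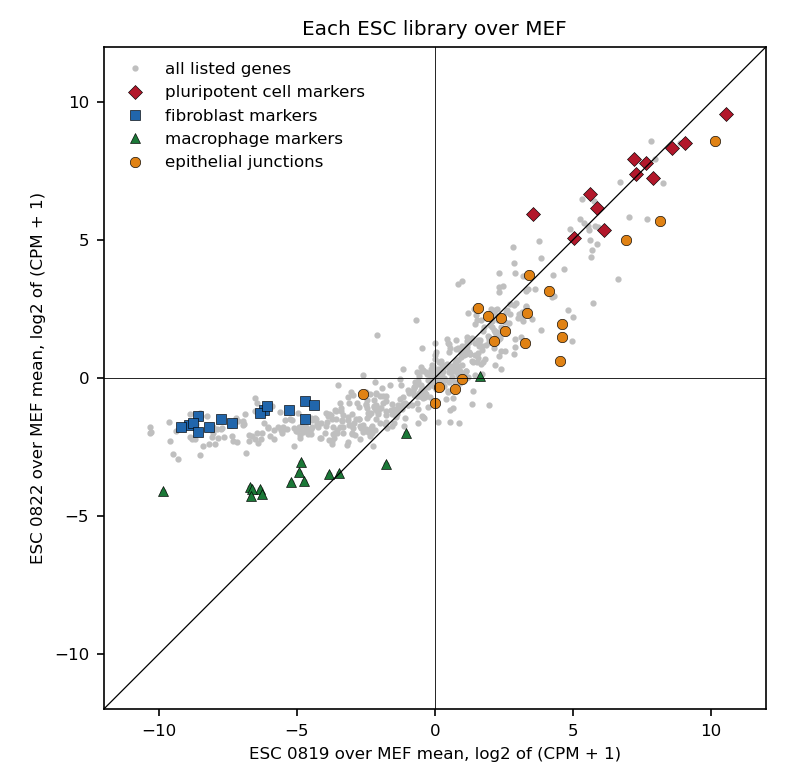
Each point is a gene of the lists used here, with its difference from the MEF mean, in log2 of (CPM + 1), in ESC 0819 on the x axis and in ESC 0822 on the y axis; the diagonal marks equal differences. Pluripotent cell markers (diamonds) lie near the diagonal, while fibroblast markers (squares) lie far further below MEF in ESC 0819 than in ESC 0822. Triangles are macrophage markers, circles epithelial junction genes and small points the other listed genes.

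The pluripotency genes separated ESC from MEF nearly to the last member. Of 29 listed transcription factors and markers, 28 rose and 0 fell, with a median log2 fold change of 9.78 (6.74 with genes at 0 in both MEF libraries set to their lower bound), beside 0.00 over all genes tested. The counts were the same with either ESC library alone, and 26 rose in the fit of the 4 libraries. Pou5f1 (ENSMUSG00000024406, chromosome 17, 35506018 to 35510772 in mm10), the POU factor at the centre of the network, had 752 and 698 CPM in ESC, against 2.36 and 4.47 CPM in MEF. Its log2 fold change was 7.71 ± 0.64 (SE, adjusted p = 1.1e-07), with both ESC libraries far above both MEF libraries and close to each other. Nanog (ENSMUSG00000012396, chromosome 6, 122707489 to 122714633), a homeodomain factor that holds ESC in self-renewal, had 518 and 620 CPM in ESC, against 0.215 and 1.02 CPM in MEF (9.78 ± 1.44, adjusted p = 3.82e-05). Sox2, the partner of Pou5f1 on DNA, had 283 and 233 CPM in ESC, against 3.01 and 2.84 CPM in MEF (6.45 ± 0.76, adjusted p = 4.55e-06). For none of the 3 did the groups overlap, and in each the ESC libraries stood close to each other.

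Factors that mark the naive state set the cell types apart in the same way. Esrrb, an orphan nuclear receptor, had 436 and 645 CPM in ESC, against 0 and 0.406 CPM in MEF (adjusted p = 2.18e-05). On 2 counts in MEF its ratio was 2588 (95% counting interval 716 to 21379). Tfcp2l1, a target of LIF signalling, had 774 and 995 CPM in ESC, against 0 and 2.23 CPM in MEF (9.57 ± 0.60, adjusted p = 7.42e-09). Both were somewhat higher in ESC 0819 than in ESC 0822, and no ESC library came near MEF. Of the 29 genes, 13 had no count in either MEF library, so that no fold can be fitted and a lower bound is given instead, set against the 3 counts per library that a count of 0 allows (at most 0.643 CPM in MEF, counting error only). Zfp42 (Rex1), a zinc finger gene used to mark naive cells, had 244 and 148 CPM in ESC and was at least 305-fold higher than in MEF. Dppa3 (Stella) had 32.8 and 32.1 CPM in ESC and was at least 50.4-fold higher, and Lin28a, which binds let-7 precursors, had 99.7 and 47.8 CPM and was at least 115-fold higher. Dppa5a reached 752 and 1499 CPM in ESC, at least 1749-fold above MEF, although it has near-identical copies among which RSEM divides reads. Klf4 was the 1 member that was not called. It had 197 and 228 CPM in ESC, against 120 and 98.3 CPM in MEF (0.96, adjusted p = 0.194), so that this reprogramming factor was abundant in both cell types. Klf2, its relative, had 236 and 198 CPM in ESC, against 49 and 33.1 CPM in MEF, and rose (2.40, adjusted p = 0.000342).

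**Figure D3:**
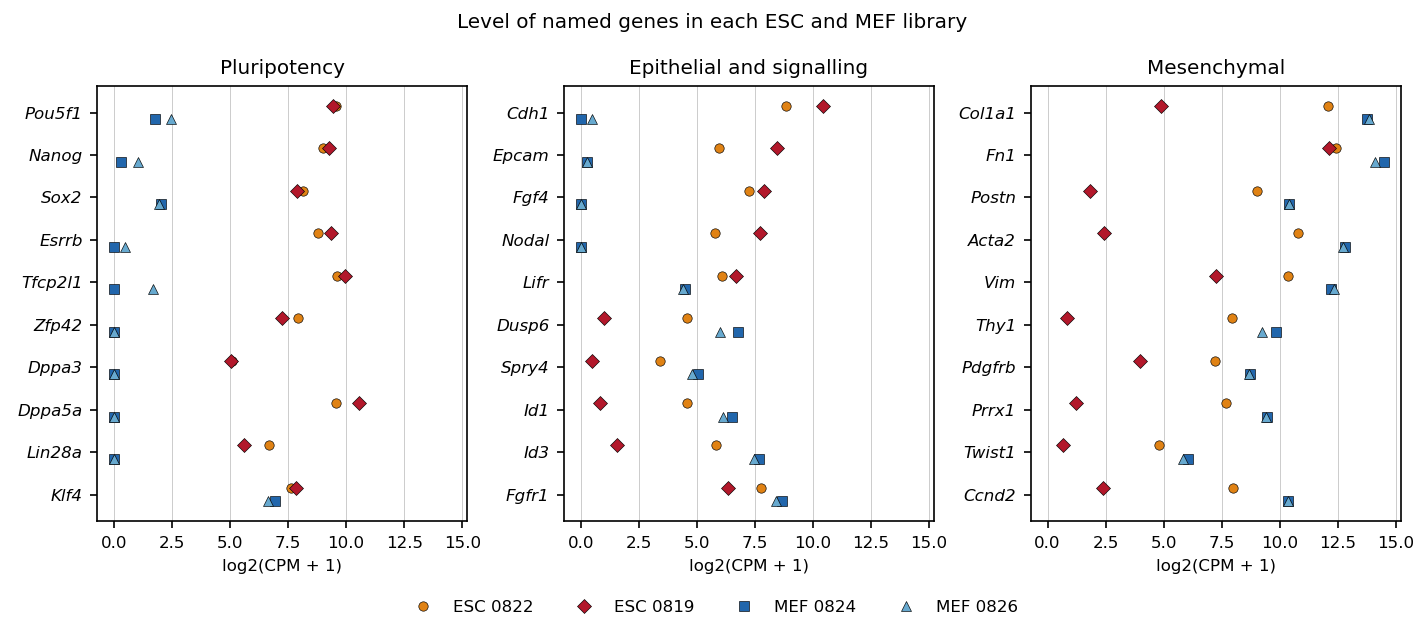
Level of named genes in each library, as log2(CPM + 1) on the x axis, for pluripotency genes (left), epithelial and signalling genes (middle) and mesenchymal genes (right); circles and diamonds are the ESC libraries, squares and triangles the MEF libraries. Both ESC libraries lie above MEF for the pluripotency genes, by the least for Klf4, which was not called. For the mesenchymal genes ESC 0822 lies between ESC 0819 and MEF, except for Fn1, where the ESC libraries lie together.

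Promoters of 3 of these genes are shown because they hold letters that Pou5f1 recognises, in Nanog joined to letters that Sox2 recognises. The 250 bases before the annotated RefSeq start are given 5′ to 3′ in the gene's direction (RefSeq, GRCm38.p6), with the matched motif in capitals: the SOX-POU composite in Nanog, and the POU motif alone in Zfp42 and Sox2.
Nanog (chr6:122707239-122707488, plus strand): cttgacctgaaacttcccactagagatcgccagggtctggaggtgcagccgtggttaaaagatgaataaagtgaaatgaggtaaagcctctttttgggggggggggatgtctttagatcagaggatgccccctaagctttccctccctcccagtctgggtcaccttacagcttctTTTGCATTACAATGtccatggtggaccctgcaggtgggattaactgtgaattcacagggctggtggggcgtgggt
Zfp42 (chr8:43307010-43307259, minus strand): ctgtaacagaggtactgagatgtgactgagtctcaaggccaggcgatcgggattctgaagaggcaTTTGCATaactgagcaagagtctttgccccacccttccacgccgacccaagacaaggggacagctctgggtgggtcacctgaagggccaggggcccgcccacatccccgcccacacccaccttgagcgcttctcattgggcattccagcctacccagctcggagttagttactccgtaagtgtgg
Sox2 (chr3:34649745-34649994, plus strand): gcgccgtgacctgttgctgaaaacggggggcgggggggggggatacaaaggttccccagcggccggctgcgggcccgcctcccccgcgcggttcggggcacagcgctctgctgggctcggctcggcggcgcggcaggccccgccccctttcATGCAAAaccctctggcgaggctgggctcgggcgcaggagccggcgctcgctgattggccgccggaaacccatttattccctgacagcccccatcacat
On both strands, 11 motifs were searched: the POU motif ATGCAAA, the SOX motif CATTGTT, the composite CATTGTNATGCAAA (which overlaps the POU motif), the CArG box, AP-1 TGACTCA, TEAD GGAATG, the TATA box TATAAA, KLF GGGTGTGG, ESRRB TCAAGGTCA, E2F TTTCCCGC and CRE TGACGTCA. The 3 motifs shown in capitals here and below were chosen after the matches were seen. Of the 18 pluripotency genes with a promoter in the RefSeq table, 3 (16.7%) held the POU motif, beside 4.65% of all 27025 promoters of the same length. The composite was found in 1 of the 27025, that of Nanog, where it reads on the minus strand and begins 75 bases before the start. The SOX motif was found in 1 of the 18 (5.56%, beside 3.78% of all) and the ESRRB motif in 0 of the 18. A match is a run of letters and was not tested for binding.

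Genes of the formative and primed states, which follow the naive state in the embryo, did not move together. Over all genes tested, 26.8% rose and 25.7% fell. Of 9 tested, 4 rose and 2 fell, and without MEF 0824 or without MEF 0826 only 1 rose. Otx2, a homeobox gene that leads cells out of the naive state, had 2.38 and 13.4 CPM in ESC, at least 12.3-fold above MEF, where both libraries had no count. Its call (adjusted p = 0.0222) was lost without ESC 0819 (adjusted p = 0.115), without MEF 0824 (0.0934), without MEF 0826 (0.0919), with DESeq2 (0.132) and in the fit of the 4 libraries (0.0679). Fgf5, the classical mark of the primed epiblast, had no count in either ESC library, against 1.29 and 2.03 CPM in MEF, and was at least 2.79-fold lower in ESC (adjusted p = 0.00247). Pou3f1 had 0.199 and 0.972 CPM in ESC, against 0 and 0.203 CPM in MEF, and was not called (adjusted p = 0.28). None of these 3 genes passed 14 CPM in any library.

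Signalling genes were divided. Of 25 genes of the LIF, FGF, BMP, Nodal and WNT pathways 9 rose and 9 fell, beside 26.8% and 25.7% of all genes tested. Among the ligands, Fgf4, which ESC secrete and which primes them for differentiation, had 153 and 239 CPM in ESC, at least 305-fold above MEF. Nodal, a TGF-beta family ligand of the early embryo, had 53.6 and 208 CPM in ESC, at least 203-fold above MEF, and was several times as high in ESC 0819 as in ESC 0822. No count of either ligand was found in MEF. Lefty1, an inhibitor and target of Nodal signalling, had 21.3 and 34.6 CPM in ESC, against 2.79 and 2.44 CPM in MEF (3.41 ± 0.71, adjusted p = 0.000767). Lefty2, its relative, had 150 and 115 CPM in ESC, against 0 and 0.203 CPM in MEF (adjusted p = 8.57e-05), a ratio of 1265 on 1 count in MEF (95% counting interval 227 to 50015). Bmp4 was not called (adjusted p = 0.0677), with 11.7 and 1.17 CPM in ESC, against 12.2 and 21.7 CPM in MEF, but was lower with ESC 0819 alone (-3.85, adjusted p = 9.06e-05). Axin2, a target of WNT signalling that restrains it, had 111 and 28.4 CPM in ESC, against 3.22 and 3.05 CPM in MEF (4.47, adjusted p = 0.000541).

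Among the receptors, Lifr, the receptor chain for LIF, had 67 and 102 CPM in ESC, against 21.3 and 19.9 CPM in MEF (2.03 ± 0.24, adjusted p = 4.48e-06). Its partner Il6st and its effector Stat3 were not called (adjusted p = 0.148 and 0.166), with Stat3 at 178 and 178 CPM in ESC, against 292 and 264 CPM in MEF. Socs3, a feedback target of Stat3, rose (54.2 and 48 CPM in ESC, against 25.1 and 16 CPM in MEF, adjusted p = 0.0103). Fgfr1 had 217 and 81.1 CPM in ESC, against 403 and 343 CPM in MEF, and fell by 1.32 ± 0.34 (log2, adjusted p = 0.00393), a call lost without ESC 0819 (adjusted p = 0.0573). Genes that respond to FGF and BMP differed among themselves. Dusp6, a phosphatase that answers ERK activity, had 23 and 0.972 CPM in ESC, against 109 and 62.8 CPM in MEF (-2.84, adjusted p = 0.00149). Id1, a target of BMP signalling, had 22.5 and 0.778 CPM in ESC, against 89.8 and 69.7 CPM in MEF (-2.78, adjusted p = 0.00242), and Id3 had 55.2 and 1.94 CPM in ESC, against 206 and 176 CPM in MEF (-2.74, adjusted p = 0.00891). In all 3 genes ESC 0822 stood between ESC 0819 and MEF, as it did for the fibroblast markers, and the calls held with each ESC library alone. The FGF-responsive Spry2 (79.5 and 56.4 CPM in ESC, against 97.1 and 74.4 CPM in MEF) and the BMP-responsive Id2 (17.7 and 37.1 CPM in ESC, against 61.6 and 52.4 CPM in MEF) were not called (adjusted p = 0.514 and 0.106).

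Most epithelial junction genes rose. Of 20 tested, 15 rose and 0 fell, with a median log2 fold change of 3.77 (3.15 with genes at 0 in MEF at their bound). With ESC 0822 alone 10 rose, and without MEF 0824 11. Cdh1, E-cadherin, had 462 and 1385 CPM in ESC, against 0 and 0.406 CPM in MEF (adjusted p = 2.19e-06), a ratio of 4437 on 2 counts in MEF (95% counting interval 1228 to 36640). Epcam, an adhesion protein of epithelia and ESC, had 61.4 and 350 CPM in ESC, against 0.215 and 0.203 CPM in MEF (adjusted p = 1.01e-05), a ratio of 990 on 2 counts (95% counting interval 274 to 8177). Both stood apart from MEF in both ESC libraries and were several times higher in ESC 0819 than in ESC 0822. The tight junction gene Cldn6 had 4.77 and 1.94 CPM in ESC, at least 5.22-fold above MEF, and its call (adjusted p = 0.0203) was lost without ESC 0822 (0.0617), without MEF 0824 (0.0886) and without MEF 0826 (0.088). Desmoplakin (Dsp) had 12.5 and 206 CPM in ESC, against 8.59 and 7.11 CPM in MEF, so its rise (3.80, adjusted p = 0.00221) rested on ESC 0819 (with ESC 0822 alone, 0.67 and adjusted p = 0.498). Junction proteins that mesenchymal cells also use were not called, among them Tjp1 (181 and 366 CPM in ESC, against 170 and 203 CPM in MEF) and plakoglobin, Jup (178 and 249 CPM in ESC, against 235 and 216 CPM in MEF).

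Most mesenchymal genes fell, and how many were called and by how much depended on which ESC library was used. Of 28 mesenchymal transcription factors 0 rose and 23 fell, with a median log2 fold change of -2.21. With ESC 0819 alone 24 of 29 fell and the median was -4.24, and with ESC 0822 alone 14 of 29 fell and it was -1.42. Twist1, a driver of the mesenchymal state, had 26.6 and 0.583 CPM in ESC, against 65.3 and 55.9 CPM in MEF (-2.16 ± 0.66, adjusted p = 0.0118). Prrx1, a limb mesenchyme factor, had 203 and 1.36 CPM in ESC, against 702 and 685 CPM in MEF (-2.76 ± 0.95, adjusted p = 0.0211, without MEF 0824 0.0556). Snai2, a repressor of Cdh1, had 23.8 and 1.56 CPM in ESC, against 67.9 and 66.6 CPM in MEF, and Runx1 had 21.7 and 1.75 CPM in ESC, against 64.9 and 57.3 CPM in MEF. Snai2 and Runx1 fell (adjusted p = 0.0141 and 0.0108) but not with ESC 0822 alone (0.076 and 0.087). In none of the 4 did ESC overlap with MEF, and ESC 0819 was at most 2.87% of the MEF mean.

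Of 26 genes of TGF-beta and growth factor signalling in fibroblasts, 0 rose and 20 fell (23 with ESC 0819 alone, 14 with ESC 0822 alone), with a median of -2.74. The receptor Tgfbr2 had 81.9 and 4.47 CPM in ESC, against 277 and 286 CPM in MEF (-2.71 ± 0.70, adjusted p = 0.00382). Of the platelet-derived growth factor receptors, Pdgfrb had 149 and 15 CPM in ESC, against 427 and 409 CPM in MEF, and fell (-2.35 ± 0.75, adjusted p = 0.0146, without ESC 0819 0.0993). Pdgfra had 102 and 6.03 CPM in ESC, against 175 and 192 CPM in MEF, and was called only without ESC 0822 (main adjusted p = 0.112, without it 0.00125). Over these 3 genes ESC 0819 stood at 1.59% to 3.58% of the MEF mean, and ESC 0822 at 29.1% to 55.7%.

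The interstitial matrix differed widely between the ESC libraries. Its 26 genes summed to 28429 and 5132 CPM in ESC, against 106664 and 97994 CPM in MEF. In the main test 0 rose and 15 fell (median -2.61), with ESC 0819 alone all 26 fell (median -7.69), with ESC 0822 alone 13 fell (median -1.76), and without either MEF library 9 fell. Col1a1 (ENSMUSG00000001506, chromosome 11, 94936224 to 94953042), a chain of type I collagen, had 4376 and 29 CPM in ESC, against 13813 and 14809 CPM in MEF. It was not called in the main test (-2.70 ± 1.12, adjusted p = 0.0511) but was with ESC 0819 alone (-8.96, adjusted p = 1.96e-06), with DESeq2 (0.0272) and with no filter (0.0161). Its partner chain Col1a2 had 2860 and 15.6 CPM in ESC, against 9270 and 10135 CPM in MEF, and was called (-2.75 ± 1.10, adjusted p = 0.0429), a call lost without MEF 0824 (0.0852), without MEF 0826 (0.0941) and with no scaling factor (0.0561). Col3a1, Postn and Dcn were not called either (adjusted p = 0.0748, 0.0931 and 0.0905), but were without ESC 0822 and with no filter (0.0297, 0.0421 and 0.0425 with no filter). Elastin, Eln, had 21.1 and 0 CPM in ESC, against 78.2 and 96.1 CPM in MEF (adjusted p = 0.0325, without ESC 0819 0.164, without MEF 0824 0.0634, without MEF 0826 0.0853). In each of these genes the fold between the ESC libraries was larger than that between ESC 0822 and MEF.

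Fibronectin, Fn1, stood apart from the collagens. It had 5509 and 4482 CPM in ESC, against 22987 and 17764 CPM in MEF, and fell by 2.03 ± 0.48 (log2, adjusted p = 0.00211), with similar values for ESC 0819 alone (-2.20) and ESC 0822 alone (-1.89). It stood at 22% of the MEF mean in ESC 0819, where it made up 4482 of the 5132 CPM of the list, while Col1a1 stood at 0.202%. The basement membrane genes changed in both directions: of 15, 5 rose and 10 fell (3 and 7 with ESC 0822 alone, 3 and 7 without MEF 0824, 3 and 8 without MEF 0826). Lama1, the laminin chain of the first embryonic basement membranes, had 81.1 and 57.2 CPM in ESC, against 4.3 and 6.5 CPM in MEF (3.67 ± 0.76, adjusted p = 0.00078). Lama5 had 399 and 590 CPM in ESC, against 100 and 122 CPM in MEF (2.16 ± 0.24, adjusted p = 2.66e-06). Col4a1, the type IV collagen chain, had 644 and 7.39 CPM in ESC, against 2380 and 2080 CPM in MEF (-2.77 ± 0.93, adjusted p = 0.0183, without MEF 0824 0.0554). Laminin alpha chains 1 and 5 were thus higher in both ESC libraries while type IV collagen was nearly absent from ESC 0819.

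Among 18 matrix proteases and their inhibitors 0 rose and 15 fell (18 with ESC 0819 alone, 9 with ESC 0822 alone). Mmp14, a membrane-bound protease that cuts collagen, had 307 and 7.19 CPM in ESC, against 1031 and 977 CPM in MEF (-2.67 ± 0.82, adjusted p = 0.0115). Mmp2, which Mmp14 activates, had 96 and 10.5 CPM in ESC, against 349 and 380 CPM in MEF (-2.78 ± 0.76, adjusted p = 0.00562). The inhibitor Timp3 had 386 and 4.86 CPM in ESC, against 1749 and 1338 CPM in MEF (-2.98 ± 0.91, adjusted p = 0.0114). In all 3 genes ESC 0819 was lowest and MEF highest.

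Contractile genes and targets of SRF and of YAP with TEAD factors fell in every tested member, 21 of 21 (median -2.84), also with ESC 0819 alone, while 17 fell with ESC 0822 alone. Acta2, smooth muscle actin, had 1778 and 4.47 CPM in ESC, against 7224 and 6851 CPM in MEF (-2.98 ± 1.23, adjusted p = 0.0492, without MEF 0824 0.103, without MEF 0826 0.0915, with no scaling factor 0.063). Tagln had 789 and 3.5 CPM in ESC, against 3006 and 2993 CPM in MEF (-2.92 ± 1.17, adjusted p = 0.0446), and its call was lost without ESC 0819 (0.0654), without MEF 0824 (0.0934), without MEF 0826 (0.0887) and with no scaling factor (0.0581). Vimentin (Vim), the intermediate filament of mesenchymal cells, had 1307 and 150 CPM in ESC, against 4751 and 5158 CPM in MEF (-2.77 ± 0.57, adjusted p = 0.000722). Lamin A/C (Lmna) had 234 and 36.6 CPM in ESC, against 702 and 757 CPM in MEF (-2.43 ± 0.49, adjusted p = 0.000576). In these 4 genes ESC 0822 stood at 25.3% to 32.1% of the MEF mean, and ESC 0819 at 0.0635% (Acta2) to 5.01% (Lmna).

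Promoters of 3 members are shown because they hold a CArG box, the letters that SRF recognises, within the 250 bases before the RefSeq start (GRCm38.p6, 5′ to 3′ in the gene's direction, CArG box in capitals).
Myl9 (chr2:156775214-156775463, plus strand): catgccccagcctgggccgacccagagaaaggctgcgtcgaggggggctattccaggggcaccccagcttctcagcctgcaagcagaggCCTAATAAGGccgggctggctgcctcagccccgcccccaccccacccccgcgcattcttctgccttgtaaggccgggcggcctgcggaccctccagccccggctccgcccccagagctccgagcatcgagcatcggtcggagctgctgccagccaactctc
Cnn2 (chr10:79988350-79988599, plus strand): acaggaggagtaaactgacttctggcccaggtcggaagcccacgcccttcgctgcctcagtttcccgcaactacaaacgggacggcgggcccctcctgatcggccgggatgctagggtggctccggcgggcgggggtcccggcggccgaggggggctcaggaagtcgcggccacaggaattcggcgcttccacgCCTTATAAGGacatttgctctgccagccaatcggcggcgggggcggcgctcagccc
Vcl (chr14:20929148-20929397, plus strand): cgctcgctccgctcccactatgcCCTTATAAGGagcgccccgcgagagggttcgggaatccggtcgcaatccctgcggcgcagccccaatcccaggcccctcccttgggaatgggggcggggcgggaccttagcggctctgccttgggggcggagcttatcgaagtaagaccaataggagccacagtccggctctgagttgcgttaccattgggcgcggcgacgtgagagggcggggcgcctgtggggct
Of the 19 members with a promoter in the table these 3 (15.8%) held a CArG box, beside 1.62% of all 27025. The TEAD letters were found in 9 of the 19 (47.4%), beside 14.4% of all, and TATA letters in 6 (31.6%), beside 14.3%. Myl9, a myosin light chain, had 149 and 0.583 CPM in ESC, against 723 and 675 CPM in MEF (-3.22, adjusted p = 0.0192). Cnn2, a calponin, had 286 and 51.5 CPM in ESC, against 950 and 1015 CPM in MEF (-2.54, adjusted p = 0.0056), and Vcl, vinculin, had 477 and 126 CPM in ESC, against 1625 and 1658 CPM in MEF (-2.45, adjusted p = 0.00835). Cnn2 and Vcl were not called with ESC 0822 alone (adjusted p = 0.0602 and 0.0953).

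Mesenchymal adhesion genes fell in 11 of 14 cases and rose in 1. N-cadherin, Cdh2, had 68.4 and 11.5 CPM in ESC, against 228 and 204 CPM in MEF (-2.43 ± 0.60, adjusted p = 0.00275). In TPM, Cdh1 stood at 204 and 577 and Cdh2 at 32.4 and 5.01 in ESC, against 0 and 0.23 for Cdh1 and 98.9 and 89 for Cdh2 in MEF, so that the more abundant of the classical cadherins differed between the cell types. Cdh11 had 322 and 6.81 CPM in ESC, against 964 and 959 CPM in MEF, and was not called (adjusted p = 0.0506), but was without ESC 0822 (0.000179), with DESeq2 (0.0327), with RLE factors (0.05) and with no filter (0.0166). Thy1, a surface marker of fibroblasts, had 245 and 0.778 CPM in ESC, against 927 and 608 CPM in MEF (-2.64 ± 1.03, adjusted p = 0.039, without MEF 0824 0.129, without MEF 0826 0.0585, with no scaling factor 0.0521). Cd44, a hyaluronan receptor, had 165 and 4.08 CPM in ESC, against 839 and 761 CPM in MEF (-3.24 ± 0.78, adjusted p = 0.00233). The 1 gene that rose was Eng, a co-receptor for TGF-beta ligands, with 57.4 and 170 CPM in ESC, against 32.2 and 33.3 CPM in MEF (1.79, adjusted p = 0.00227, without ESC 0819 0.117). In the fit of only the 4 libraries at most 2 members were called lower in any of the mesenchymal lists, from transcription factors to adhesion.

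**Figure D4:**
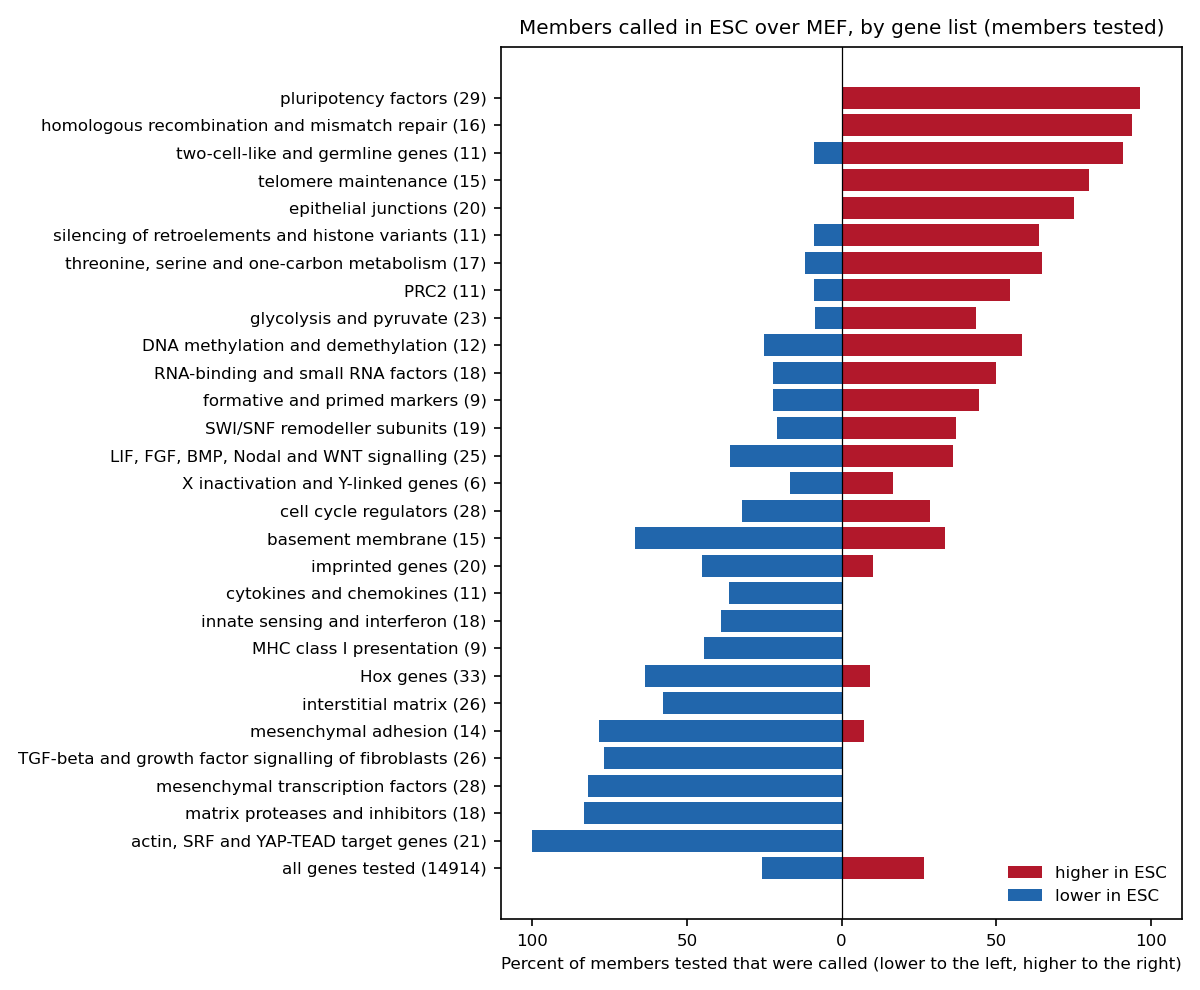
Share of the tested members of each list (number in brackets) that was called higher in ESC (right of 0) or lower in ESC (left of 0), in percent. The lists of cell type markers are not drawn. All genes tested, at the bottom, stood at 26.8% higher and 25.7% lower, and the pluripotency list and the actin list lie at the opposite ends.

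Writers and erasers of DNA methylation were mostly higher in ESC. Of 12 genes 7 rose and 3 fell (2 fell with either ESC library alone). Dnmt1, which copies methylation at replication, had 399 and 520 CPM in ESC, against 129 and 144 CPM in MEF (1.75 ± 0.15, adjusted p = 1.16e-07). Its cofactor Uhrf1 had 588 and 319 CPM in ESC, against 47.7 and 66.8 CPM in MEF (2.99 ± 0.23, adjusted p = 6.03e-08). The de novo enzymes differed from each other. Dnmt3b had 163 and 167 CPM in ESC, against 1.72 and 3.45 CPM in MEF (5.98 ± 0.83, adjusted p = 2.18e-05), and its cofactor Dnmt3l had 21.5 and 14.8 CPM in ESC, against 0.215 and 0 CPM in MEF (adjusted p = 0.00125, a ratio of 173 on 1 count, 95% counting interval 30.6 to 6864). Dnmt3a had 50.5 and 110 CPM in ESC, against 56.7 and 58.5 CPM in MEF, and was not called (adjusted p = 0.194), although it was higher with ESC 0819 alone (0.92, adjusted p = 0.0116). Among the erasers, which oxidise 5-methylcytosine, Tet1 had 362 and 425 CPM in ESC, against 7.95 and 7.72 CPM in MEF, and Tet2 had 134 and 225 CPM in ESC, against 22.5 and 30.1 CPM in MEF (2.77, adjusted p = 0.00128), while Tet3 fell, with 20.3 and 9.92 CPM in ESC, against 65.7 and 75 CPM in MEF (-2.22, adjusted p = 2.56e-06).

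Of 11 genes of the PRC2 complex, which writes the repressive mark H3K27me3, 6 rose and 1 fell. The catalytic subunit Ezh2 had 160 and 161 CPM in ESC, against 35 and 40 CPM in MEF (2.09 ± 0.13, adjusted p = 5.86e-09), whereas its paralog Ezh1 had 37.2 and 40.8 CPM in ESC, against 29.2 and 24.8 CPM in MEF, and was not called (adjusted p = 0.431). The accessory subunit Jarid2 had 195 and 488 CPM in ESC, against 22.3 and 25 CPM in MEF (3.85 ± 0.53, adjusted p = 1.89e-05). The core subunits Eed and Suz12 rose too, with Suz12 at 381 and 440 CPM in ESC, against 65.5 and 79.4 CPM in MEF (2.50, adjusted p = 2.49e-08). Of 11 genes for silencing of retroelements and histone variants 7 rose and 1 fell, led by Trim28, the corepressor of KRAB zinc finger proteins, at 1608 and 732 CPM in ESC, against 283 and 347 CPM in MEF (1.89, adjusted p = 2.29e-05), with ESC 0822 above ESC 0819.

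SWI/SNF remodeller subunits did not change together: of 19, 7 rose and 4 fell, beside 26.8% and 25.7% of all genes tested. The counts were 5 and 2 with ESC 0822 alone, 3 and 2 without MEF 0824, 4 and 2 without MEF 0826, and 2 and 0 in the fit of the 4 libraries. Levels of paralogs are compared here in TPM. The ATPase Smarca4 (Brg1) had 126 and 124 TPM in ESC, against 105 and 105 TPM in MEF, and was not called on counts (adjusted p = 0.313), while the alternative ATPase Smarca2 (Brm) had 17.8 and 9.15 TPM in ESC, against 35.9 and 37.8 TPM in MEF, and fell (-1.64 ± 0.30, adjusted p = 0.00027). Smarcc1 (BAF155) had 132 and 154 TPM in ESC, against 56.8 and 71.4 TPM in MEF, and rose (1.11 ± 0.15, adjusted p = 2.01e-05), while Smarcc2 (BAF170) had 37.4 and 15.1 TPM in ESC, against 75.1 and 69.2 TPM in MEF, and fell (-1.50 ± 0.28, adjusted p = 0.000342). In the fit of the 4 libraries the calls of Smarca2, Smarcc1 and Smarcc2 were lost (adjusted p = 0.0678, 0.0577 and 0.0817). Smarcc1 was the more abundant of that pair in both ESC libraries, and Smarcc2 and Smarcc1 lay close together in MEF. Smarcd3 was not called (adjusted p = 0.265). The plot of related genes per transcript length shows these pairs.

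**Figure D5:**
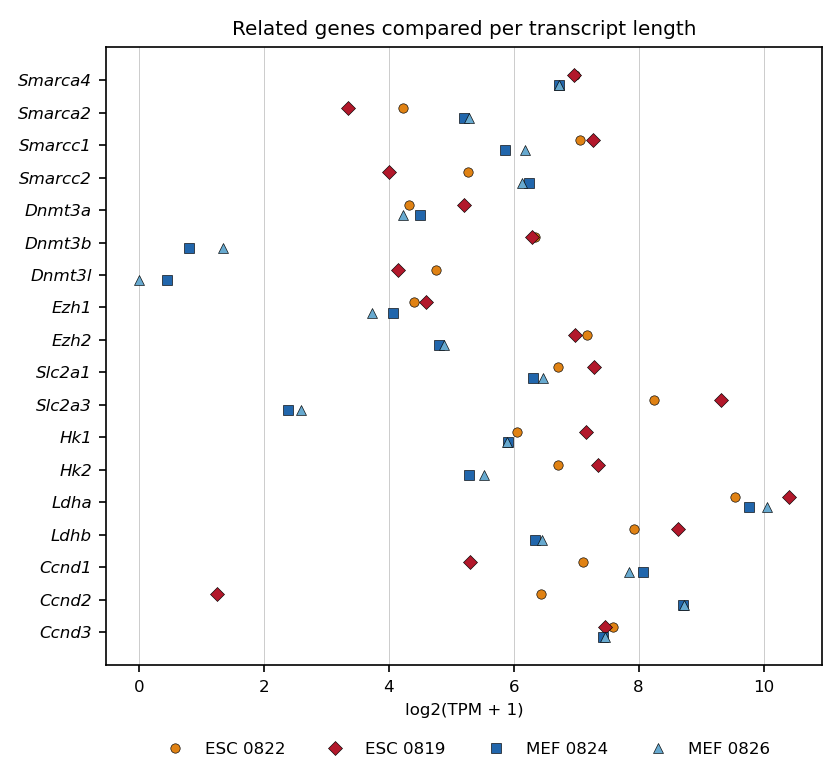
Level of related genes in each library as log2(TPM + 1) on the x axis, which corrects for transcript length. Circles and diamonds are the ESC libraries, squares and triangles the MEF libraries. Smarcc1, Dnmt3b, Ezh2 and Slc2a3 were higher in both ESC libraries than in MEF and Smarca2, Smarcc2, Ccnd1 and Ccnd2 lower, while Smarca4, Ezh1 and Ccnd3 were not called.

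Cell cycle regulators did not move in one direction: of 28, 8 rose and 9 fell, with a median of 0.14. These shares are close to those over all genes tested (26.8% higher and 25.7% lower). The D-type cyclins, which link growth signals to entry into S phase, behaved differently from one another. Ccnd2 had 251 and 4.28 CPM in ESC, against 1304 and 1313 CPM in MEF (-3.36 ± 0.89, adjusted p = 0.00469), and Ccnd1 had 260 and 69 CPM in ESC, against 515 and 466 CPM in MEF (-1.58 ± 0.44, adjusted p = 0.00689, without ESC 0819 0.0765). Ccnd3 had 187 and 181 CPM in ESC, against 178 and 185 CPM in MEF, a log2 difference of 0.02 ± 0.15 (adjusted p = 0.92). Ccne1, the cyclin of the S phase kinase Cdk2, had 104 and 98.8 CPM in ESC, against 44 and 49.8 CPM in MEF (1.11 ± 0.30, adjusted p = 0.00527, without MEF 0824 0.053). The phosphatase Cdc25a had 124 and 99.2 CPM in ESC, against 42.3 and 45.1 CPM in MEF (1.35 ± 0.14, adjusted p = 8.94e-07). Cdk6 had 20.7 and 18.5 CPM in ESC, against 35.9 and 28.6 CPM in MEF (-0.72 ± 0.21, adjusted p = 0.00961, without ESC 0819 0.0629, without MEF 0824 0.0966, with no scaling factor 0.0856).

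Among the inhibitors of cyclin-dependent kinases, Cdkn2a, the locus of p16 and p19 and a barrier to reprogramming, had 16.9 and 12.1 CPM in ESC, against 92.1 and 46.3 CPM in MEF (-2.26 ± 0.58, adjusted p = 0.0037). Both ESC libraries were below both MEF libraries, of which MEF 0824 was the higher. Cdkn1a (p21) had 239 and 424 CPM in ESC, against 513 and 485 CPM in MEF, and was not called (adjusted p = 0.0985), though it was lower with ESC 0822 alone (-1.06, adjusted p = 0.0198). Of the Myc family, Mycn had 56 and 22.2 CPM in ESC, against 1.93 and 2.44 CPM in MEF (4.14, adjusted p = 0.000687), while Myc had 36.6 and 5.64 CPM in ESC, against 103 and 88 CPM in MEF (-2.18, adjusted p = 0.00953, without ESC 0819 0.098).

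Threonine, serine and one-carbon metabolism was higher in ESC in 11 of 17 genes and lower in 2, and 11 were also higher with either ESC library alone. Tdh, threonine dehydrogenase, on which mouse ESC depend, had 464 and 275 CPM in ESC, against 0.215 and 0.203 CPM in MEF (adjusted p = 7.1e-05), a ratio of 1761 on 2 counts in MEF (95% counting interval 487 to 14545). Gldc, the decarboxylase of the glycine cleavage system that takes up the glycine made from threonine, had 84 and 73.1 CPM in ESC, against 1.07 and 0.406 CPM in MEF (6.70 ± 0.53, adjusted p = 7.18e-08). Tyms, thymidylate synthase, had 157 and 230 CPM in ESC, against 50.3 and 67 CPM in MEF (1.72 ± 0.19, adjusted p = 1.96e-06). The cytosolic serine hydroxymethyltransferase Shmt1 rose (145 and 161 CPM in ESC, against 13.5 and 16 CPM in MEF, adjusted p = 4.21e-09), while the mitochondrial Shmt2 had 239 and 177 CPM in ESC, against 147 and 168 CPM in MEF, and was not called (adjusted p = 0.169). Phgdh, the first enzyme of serine synthesis, fell (159 and 104 CPM in ESC, against 280 and 329 CPM in MEF, adjusted p = 0.000117). Tdh, Gldc, Shmt1 and Tyms were thus higher in both ESC libraries than in MEF, and Phgdh lower.

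Of 23 glycolysis and pyruvate genes 10 rose and 2 fell, beside 26.8% and 25.7% of all genes tested, but this depended on the libraries used. The median log2 fold change was 0.60, with ESC 0819 alone 0.81 and with ESC 0822 alone 0.04. When ESC 0819, MEF 0824 or MEF 0826 was left out, the share that rose was no larger than that over all genes tested. The neuronal-type glucose transporter Slc2a3 (Glut3; ENSMUSG00000003153, chromosome 6, 122727809 to 122801640) had 618 and 1397 CPM in ESC, against 10.3 and 9.14 CPM in MEF (6.69 ± 0.83, adjusted p = 7.06e-06). In TPM it stood at 302 and 638 in ESC, against 4.2 and 5.06 in MEF, while Slc2a1 (Glut1) stood at 104 and 155 in ESC, against 77.9 and 87.3 in MEF, and was not called (adjusted p = 0.365). Glut3 was thus the more abundant of the pair in ESC and Glut1 in MEF. Hexokinase 2, Hk2, had 200 and 320 CPM in ESC, against 92.8 and 81.1 CPM in MEF (1.58 ± 0.23, adjusted p = 3.45e-05). Hk1 had 131 and 294 CPM in ESC, against 126 and 127 CPM in MEF, and its call (adjusted p = 0.0399) was lost without ESC 0819 (0.918), without MEF 0824 (0.14) and without MEF 0826 (0.127). Ldhb, the lactate dehydrogenase subunit that favours pyruvate, had 142 and 270 CPM in ESC, against 54.5 and 55.9 CPM in MEF (1.90 ± 0.30, adjusted p = 7.91e-05), and Ldha had 583 and 1134 CPM in ESC, against 728 and 891 CPM in MEF, so that its ESC libraries lay on either side of MEF (adjusted p = 0.776).

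Genes of homologous recombination and mismatch repair rose almost without exception: 15 of 16 rose and 0 fell, and 11 rose in the fit of the 4 libraries. The median log2 fold change was 2.57, with ESC 0819 alone 2.47 and with ESC 0822 alone 2.57. Msh6, a mismatch recognition protein, had 623 and 901 CPM in ESC, against 39.5 and 51.6 CPM in MEF (4.06, adjusted p = 5.86e-09). Brca1 had 146 and 151 CPM in ESC, against 19.8 and 24.2 CPM in MEF (2.76 ± 0.21, adjusted p = 4.79e-08). In both genes ESC 0822 stood close to ESC 0819 and the groups did not overlap. Xrcc3 was the 1 member not called, with 8.94 and 8.94 CPM in ESC, against 9.66 and 8.53 CPM in MEF.

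Of 15 telomere genes 12 rose and 0 fell (10 with ESC 0822 alone, 8 without MEF 0824). Tert, the catalytic subunit of telomerase, had 20.7 and 21.6 CPM in ESC, against 5.37 and 6.09 CPM in MEF, a log2 difference of 1.88 ± 0.81 that was not called (adjusted p = 0.0602), although the groups did not overlap. It was called with DESeq2 (0.0366), no filter (0.0394), no scaling factor (0.0463) and in the fit of the 4 libraries (0.0479). Dkc1, which stabilises telomerase RNA, had 312 and 529 CPM in ESC, against 41.4 and 62.8 CPM in MEF (3.01 ± 0.29, adjusted p = 6.41e-07). Terf1, a shelterin protein, had 129 and 150 CPM in ESC, against 18 and 19.1 CPM in MEF (2.91 ± 0.38, adjusted p = 1.18e-05). Rif1, which acts at telomeres and in replication timing, had 446 and 238 CPM in ESC, against 25.3 and 37 CPM in MEF (3.45, adjusted p = 8.6e-08).

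RNA-binding and small RNA factors gave 9 higher and 4 lower of 18 (5 higher with ESC 0822 alone, 5 without MEF 0824, 6 without MEF 0826). Over all genes tested, 26.8% were higher and 25.7% lower in the main test, and the shares in the other fits are given above. Mbnl1, a splicing factor that in mouse and human works against the ESC pattern of exons, had 82.5 and 8.36 CPM in ESC, against 305 and 262 CPM in MEF (-2.64 ± 0.54, adjusted p = 0.000642). Mbnl2 had 111 and 103 CPM in ESC, against 383 and 333 CPM in MEF (-1.74 ± 0.23, adjusted p = 1.34e-05). Both fell, and Mbnl2 stood at close levels in the ESC libraries, unlike Mbnl1. The epithelial splicing factor Esrp1 had 1.59 and 2.14 CPM in ESC, at least 2.9-fold above MEF, where no count was found, and its call (adjusted p = 0.0373) was lost without any 1 of the 4 libraries (0.0529 to 0.129). Drosha, the nuclear enzyme of microRNA processing, rose (218 and 407 CPM in ESC, against 75.8 and 82.7 CPM in MEF, adjusted p = 2.28e-06).

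In the 3 lists of innate defence used here no tested gene was called higher in ESC, and some were called lower. Of 18 genes of innate sensing and interferon 0 rose and 7 fell, of 11 cytokines and chemokines 0 rose and 4 fell, and of 9 genes of MHC class I presentation 0 rose and 4 fell. The counts were 9, 9 and 4 with ESC 0819 alone, 4, 2 and 4 with ESC 0822 alone, 5, 2 and 2 without MEF 0824, and 8, 6 and 5 without MEF 0826. The lists summed to 409 and 324, 442 and 25.9, and 247 and 249 CPM in ESC, against 706 and 517, 2016 and 1666, and 1209 and 732 CPM in MEF. MEF 0824, the library with the higher macrophage markers (3219 against 680 CPM in MEF 0826), was thus the higher in all 3 lists, and the part of these markers in the calls was not tested. B2m, the light chain of MHC class I, had 130 and 50.4 CPM in ESC, against 841 and 523 CPM in MEF (-2.92 ± 0.38, adjusted p = 1.19e-05). H2-K1, a heavy chain whose reads RSEM shares with near-identical genes, had 23.4 and 78.9 CPM in ESC, against 98.6 and 45.5 CPM in MEF, so the groups overlapped (adjusted p = 0.345). Irf1, a transcription factor of the interferon response, was not called (adjusted p = 0.161).

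Of the secreted factors, Cxcl12, a chemokine of stromal cells, had 147 and 0.389 CPM in ESC, against 952 and 1035 CPM in MEF (-3.76 ± 1.17, adjusted p = 0.0126). Il6 had 1.39 and 0.195 CPM in ESC, against 12.7 and 4.67 CPM in MEF (-3.42 ± 1.10, adjusted p = 0.0149, without ESC 0819 0.121, without MEF 0824 0.118). Ccl2 had 53.3 and 0 CPM in ESC, against 227 and 68.5 CPM in MEF (adjusted p = 0.0537, without ESC 0822 5.92e-05, without MEF 0826 0.0424, with no filter 0.0194), and Csf1, the macrophage growth factor, had 174 and 0.389 CPM in ESC, against 657 and 461 CPM in MEF (adjusted p = 0.0722, without ESC 0822 0.000222, with no filter 0.0284). ESC 0819 held next to none of the 4 and ESC 0822 stood below both MEF libraries.

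Hox genes, which record position along the body axis, were lower in ESC: of 33 tested 21 fell and 3 rose, with 25 lower with ESC 0819 alone and 16 with ESC 0822 alone. Hoxc6 had 16.3 and 2.14 CPM in ESC, against 80.7 and 56.9 CPM in MEF (-2.90 ± 0.80, adjusted p = 0.0058, without ESC 0819 0.0627). Hoxa9 had 5.36 and 0.389 CPM in ESC, against 10.5 and 16.5 CPM in MEF (-2.23 ± 0.61, adjusted p = 0.00553). The 3 that rose lie at the posterior end of their clusters: Hoxb13 (2.98 and 5.44 CPM in ESC, at least 6.55-fold above MEF), Hoxc12 (4.37 and 2.14 CPM in ESC, against 0.215 and 0 CPM in MEF, a ratio of 31 on 1 count with a 95% counting interval of 5.19 to 1261) and Hoxc13 (7.75 and 15.8 CPM in ESC, against 3.01 and 1.63 CPM in MEF). With ESC 0822 alone 2 Hox genes rose, without MEF 0824 2 and without MEF 0826 1.

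Imprinted genes fell in 9 of 20 cases and rose in 2, with 11 lower with ESC 0819 alone and 4 with ESC 0822 alone. Over all genes tested, 26.8% rose and 25.7% fell in the main test. The shares over all genes in the fits with 1 ESC library are given above, and these counts have to be read against them. H19 and Igf2 share an imprinting control region. H19 had 2226 and 10.9 CPM in ESC, against 3648 and 7418 CPM in MEF (-2.31 ± 1.29, adjusted p = 0.141), and Igf2 had 1656 and 5.25 CPM in ESC, against 3688 and 6312 CPM in MEF (-2.59 ± 1.52, adjusted p = 0.159). Neither was called in the main test and both were with ESC 0819 alone (adjusted p = 0.000174 and 0.00128). The maternally expressed Meg3 had 408 and 158 CPM in ESC, against 1344 and 931 CPM in MEF (-2.01 ± 0.43, adjusted p = 0.00092). Meg3 was therefore expressed in both ESC libraries, at 35.8% and 13.9% of the MEF mean, while H19 and Igf2 stood at 0.197% and 0.105% of it in ESC 0819.

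Genes of X inactivation and of the Y chromosome were both detected in MEF. Xist, the RNA that coats the inactive X, had 198 and 3.31 CPM in ESC, against 392 and 357 CPM in MEF. It was not called (-1.89 ± 0.80, adjusted p = 0.0556) but was lower with either ESC library alone (adjusted p = 7.45e-10 for ESC 0819 and 0.00877 for ESC 0822) and with no filter (0.0202). The Y-linked Ddx3y had 77.3 and 81.1 CPM in ESC, against 68.5 and 61.6 CPM in MEF (adjusted p = 0.162), and Eif2s3y had 43.5 and 50 CPM in ESC, against 45.7 and 43.3 CPM in MEF (adjusted p = 0.791). With no scaling factor Ddx3y was called higher (0.50, adjusted p = 0.0243). Another Y-linked gene, Kdm5d, had 6.16 and 2.92 CPM in ESC, against 25.6 and 23 CPM in MEF, and fell (-2.41, adjusted p = 1.13e-06). All 4 libraries thus held Y-linked transcripts, while Xist was at 53% of the MEF mean in ESC 0822 and at 0.883% in ESC 0819. Tsix, which overlaps Xist on the other strand, had 4.57 and 5.06 CPM in ESC and no count in MEF, but without a stated strand its reads cannot be told apart from those of Xist.

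Genes of germ cells and of the 2-cell-like state were low or absent in MEF. Of 11 tested 10 rose and 1 fell (5 rose without MEF 0824 and 7 without MEF 0826), and 9 had no count in MEF. Dazl, an RNA-binding protein of germ cells, had 30.4 and 12.8 CPM in ESC, at least 33.6-fold above MEF. Sycp3, of the meiotic chromosome axis, had 2.19 and 4.47 CPM in ESC, at least 5.17-fold above MEF, and its call (adjusted p = 0.00711) was lost without MEF 0824 (0.0562), without MEF 0826 (0.0546), with DESeq2 (0.083) and in the fit of the 4 libraries (0.0507). Zscan4f, of a family with near-identical copies that is active in a small fraction of ESC, had 11.1 and 99.2 CPM in ESC, at least 85.7-fold above MEF, and was higher in ESC 0819 than in ESC 0822.

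Markers of other cell types differed by list. Of the mesoderm markers none of 6 passed the filter for testing, with a sum of 15.7 and 3.11 CPM in ESC, against 2.58 and 3.66 CPM in MEF, most of it T (11.5 CPM) in ESC 0822. Neural markers summed to 90.2 and 30.7 CPM in ESC, against 79.2 and 77.2 CPM in MEF, with 1 of 7 higher and 1 lower. Muscle markers summed to 38.9 and 21.6 CPM in ESC, against 63.1 and 82.5 CPM in MEF (1 of 4 higher, 1 lower), with Myod1 and Myf5 at 0 in all 4 libraries. Extraembryonic endoderm markers summed to 66.4 and 11.9 CPM in ESC, against 341 and 259 CPM in MEF, nearly all of it Dab2 in MEF, and of 4 tested 2 were lower. Endothelial markers summed to 38.9 and 190 CPM in ESC, against 27.5 and 31.5 CPM in MEF (4 of 6 higher, 1 lower): Vwf at 115 CPM and Tek at 58.5 CPM made up most of the 190 CPM, while Cdh5 was at 0 in ESC. Trophoblast markers summed to 40.5 and 85.8 CPM in ESC, against 10.7 and 9.95 CPM in MEF (3 of 5 higher), most of it Tfap2c, a gene also active in germ cells, with Hand1 at 0. Keratinocyte markers summed to 37.8 and 95.9 CPM in ESC, against 3.87 and 5.28 CPM in MEF (1 of 6 higher), nearly all of it Sfn, with Krt5 at 0. Their part in the results above was not tested.

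Ranked by size among genes called in the main test and with each ESC library alone, and with a mean of at least 50 CPM in the higher group, the 10 highest fitted log2 fold changes were those of Dppa5a, Fbxo15, Sall4, Tdgf1, Zfp42, Fgf4, Gm37381, Calcoco2, Nodal and Crxos, all without a count in MEF, so that the fitted value sets no order, and at least 183-fold higher in ESC. Genes with 1 or 2 counts in MEF, such as Cdh1 and Esrrb, had ratios above most of these bounds. Sall4, a zinc finger factor of the pluripotency network, had 231 and 194 CPM in ESC, Tdgf1 (Cripto), a co-receptor for Nodal, 221 and 199 CPM, and Calcoco2, an autophagy receptor, 143 and 206 CPM. For falls, the order in the main test depends on ESC 0822, which held fibroblast transcripts. With ESC 0819 alone Cxcl12, outside the 10 named next, had a log2 fold change of -11.24. Mrc1, among the 10, had -4.80 there. The 10 largest falls in the main test were those of Lyz2, Fcrls, Stab1, Sorbs2, Gm4070, Mpeg1, Masp1, Mrc1, Bdnf and Pla2g7, with log2 fold changes of -5.11 to -4.01. Of these, Lyz2, Mpeg1, Stab1 and the mannose receptor Mrc1 are macrophage genes that stood several times higher in MEF 0824 than in MEF 0826 (Mrc1 at 173 against 54.4 CPM), and without MEF 0824 the calls of Lyz2 and Fcrls were lost (adjusted p = 0.084 and 0.0504). Fcrls (89.1 against 21.9 CPM) and Gm4070 (135 against 42.5 CPM) also stood several times higher in MEF 0824 than in MEF 0826. Bdnf, a neurotrophin, was even over the MEF libraries (8.74 and 0.778 CPM in ESC, against 79.7 and 77 CPM in MEF, -4.04 ± 0.64, adjusted p = 7.55e-05), as were Sorbs2, an adaptor of stress fibres (4.17 and 0.195 CPM in ESC, against 54.1 and 61.6 CPM in MEF), and Masp1, a protease of the complement lectin pathway (5.17 and 0 CPM in ESC, against 53.7 and 58.1 CPM in MEF).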

How the data were processed

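RNA was extracted with Trizol and made into libraries with an Illumina TruSeq RNA kit from 1 ug of total RNA, per the labels' protocols. The submitters' processing notes name Bowtie, RSEM and mm10. No source used here gives versions, trimming, annotation or counting strand, so overlapping and antisense genes cannot be told apart. Per the file headers, the authors deposited an expected count and a TPM per gene. RSEM divides reads that match several genes among them, so genes with near-identical copies are estimates. FPKM values were not used.

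Expected counts were rounded. Of 29267 gene identifiers, 28756 matched GENCODE mouse release M21, which gave symbols and mm10 positions (1-based), and the other 511 held at most 0.392% of a library's counts. Total counts were 5114254 to 5879637 in the 4 libraries. Reads carry no molecular identifiers, so limits and intervals cover counting error only. The test was edgeR's quasi-likelihood test (two-sided; R 4.3.3, limma 3.58.1 and edgeR 4.0.16) with TMM factors, filterByExpr, 1 mean per group over 28 libraries of 14 groups, no block, and Benjamini-Hochberg adjustment over the 14914 genes tested. A gene is called at an adjusted p under 0.05. SE was the absolute log2 fold change divided by the square root of its F statistic. The steps were tested on simulated data.

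The comparison, members and 38 gene lists were chosen with earlier results of these data known. The text names genes marked in those lists whatever their values, plus the 10 largest fitted changes in each direction among genes called in the main test and with each ESC library alone, with a mean of at least 50 CPM in the higher group. A few marked genes are not reported here, and any other gene was named after its values were seen. Alternatives were DESeq2 (1.42.0), RLE factors, no factor, no filter, a fold threshold, a fit of only the 4 libraries, and leaving out each library. Promoters came from RefSeq (GRCm38.p6), of which the 250 bases before the start were searched.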

Additional observations from a re-analysis of the deposited data

How the results depend on the processing

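The counts of 3991 genes higher and 3828 lower in ESC moved most in the fit of only the 4 ESC and MEF libraries, to 1423 and 608, of which 1408 and 601 were among the main calls. Leaving out 1 library gave 2907 to 4604 higher and 2656 to 4262 lower. DESeq2 gave 3984 and 3781, RLE factors 4091 and 3764, no filter 3967 and 3715, and a log2 fold change of at least 1 gave 3019 and 3007. With no scaling factor 4715 were higher and 3103 lower, as the median of all genes shifted by 0.20 (log2), so that 60.3% of the calls were higher against 51% with TMM. Of 123 named genes, 118 kept direction and side of the threshold with DESeq2, 122 with RLE factors, 116 with no factor, 114 with no filter, and 73 of 120 in the fit of the 4 libraries. Among genes that were not called in the main test, leaving out 1 library turned the sign of Ccnd3 (range -0.02 to 0.04), Dnmt3a (-0.19 without ESC 0819 to 0.92 without ESC 0822, where it was called), Ldha (-0.47 without ESC 0819 to 0.47 without ESC 0822), H2-K1 (-1.62 without ESC 0819, where it was called, to 0.15 without MEF 0824) and Eif2s3y (-0.03 without ESC 0819 to 0.15), and the cause was not tested. At these depths 3 counts, the limit that a count of 0 allows, are up to 0.595 CPM in ESC and 0.643 CPM in MEF. No paired analysis was possible because the ESC and MEF titles share no replicate number.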

Other observations

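Genes of at least 100 CPM in an ESC library with a MEF mean under 1% of it were read in the other ESC library. The 72 such genes of ESC 0819 stood in ESC 0822 at a median of 48.8% of their level (quartiles 30.5% and 77.8%, range 1.02% to 229%), and the 47 such genes of ESC 0822 stood in ESC 0819 at a median of 98% (quartiles 56.2% and 150%, range 13.7% to 383%). Of 85 genes in either set, 36 lay within 2-fold between the ESC libraries, 38 were more than 2-fold higher in ESC 0819 and 11 more than 2-fold higher in ESC 0822. The 85 were chosen by their level in these same 2 libraries. Most of the 38, such as Epcam, reached 100 CPM only in ESC 0819, and most of the 11, such as Zscan10, only in ESC 0822. The split thus describes the chosen genes and is not a test of a difference. There is 1 library on each side, so these differences have no replicate check.

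The 38 included epithelial genes: Epcam (350 CPM in ESC 0819, 61.4 CPM in ESC 0822), Cldn4 (134 and 34.2 CPM), the transcription factor Elf3 (271 and 85.4 CPM) and the membrane protease gene St14 (251 and 49.3 CPM). They also included Pecam1, an adhesion molecule of endothelium and ESC (346 and 78.5 CPM), alkaline phosphatase, Alpl (1107 and 420 CPM), the giant muscle protein gene Ttn (817 and 213 CPM) and Tspoap1 (176 and 1.79 CPM). The 11 were mostly zinc finger genes, among them Zfp534 (27.4 CPM in ESC 0819, 199 CPM in ESC 0822), Zfp987 (50.6 and 224 CPM), Zfp988 (46.9 and 185 CPM), Zfp600 (76.8 and 300 CPM), Zfp980 (253 and 554 CPM), Rex2 (214 and 490 CPM) and Zscan10 (52.7 and 159 CPM). Several of these have near-identical copies, so their counts are uncertain. The other genes named in these paragraphs were chosen after their values were seen.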
